A study of Mus musculus with 15 samples.

Results

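The 32 genes described here encode the glycolytic enzymes, the glucose and lactate transporters and the core genes of the hypoxia response. They were taken by symbol from a list of such genes, all 32 were found among the 35519 genes of the tables, and 21 of them had enough reads to be tested among 6521 tested genes. RNA of sorted retinal microglia was sequenced in bulk from C57BL/6 mice aged 12 weeks, 1 library per retina and 15 libraries in all. The groups were Apoe-/- microbead-injected (n = 4), Apoe-/- sham-injected (n = 4), wild-type microbead-injected (n = 3) and wild-type sham-injected retinas (n = 4). All groups came from the same gate for resident microglia, cells positive for Fcrls and CD11b and negative for Ly6c, at 100 to 600 cells per retina. Microbeads block fluid outflow and raise the pressure of the eye, which models glaucoma, and Apoe encodes the lipid carrier apolipoprotein E. Eye pressure and the time after injection are not stated in the labels.

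Glycolysis splits glucose into pyruvate in the cytosol, and lactate dehydrogenase turns pyruvate into lactate, which leaves the cell through monocarboxylate transporters. When oxygen is low, or when a myeloid cell is activated, the alpha subunit of hypoxia-inducible factor escapes degradation, pairs with Arnt and raises transcription of many of these genes. Microglia use both glycolysis and mitochondrial respiration, and activated microglia are known for a shift towards glycolysis.

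Libraries held 458303 to 714838 reads assigned to genes, so a gene at 0 reads could still have had up to 2.999 to 13.32 CPM, depending on the library, taking 3 reads as the limit. CPM here are reads scaled to one library size after TMM normalisation, a correction for composition. Apoe itself had 0 to 6 reads in each Apoe-/- library and 667 to 15125 reads in each wild-type library. The 13 microglial markers summed to 7956 to 15716 CPM in every library, against 42 to 145 CPM for 12 markers of monocytes and other macrophages, all 12 of them with reads. Major satellite gene models, which are repeats, took 55.4 to 70.7% of the gene reads in Apoe-/- microbead libraries, 64.7 to 74.4% in Apoe-/- sham, 40.8 to 53.5% in wild-type microbead and 55.9 to 66.6% in wild-type sham libraries. In TPM, abundance corrected for transcript length and scaled to one total in every library, the median gene was 0.45 higher, on the log2(TPM + 1) scale, in wild-type microbead than in wild-type sham libraries, and the comparisons below therefore use reads.

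Pkm, the pyruvate kinase gene, makes the M1 form or the M2 form by the choice between 2 exons of equal length, so these exons are the sequence by which the libraries tell the forms apart. Both lie on the plus strand of mm10 and have 167 bases, and they come from GENCODE transcripts Pkm-201, which holds the M2 exon at chr9:59675568-59675734, and Pkm-202, which holds the M1 exon at chr9:59675029-59675195. Capitals mark the 64 bases at which the exons differ, and the other bases give an identity of 61.7%.
Pkm-201 exon: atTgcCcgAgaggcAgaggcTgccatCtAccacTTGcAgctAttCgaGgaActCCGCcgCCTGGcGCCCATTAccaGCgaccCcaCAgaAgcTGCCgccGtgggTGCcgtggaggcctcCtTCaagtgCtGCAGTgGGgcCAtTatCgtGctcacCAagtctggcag
Pkm-202 exon: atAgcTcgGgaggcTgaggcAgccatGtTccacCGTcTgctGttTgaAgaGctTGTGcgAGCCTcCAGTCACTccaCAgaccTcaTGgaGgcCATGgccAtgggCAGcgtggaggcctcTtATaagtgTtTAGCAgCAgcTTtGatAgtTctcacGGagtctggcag

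The M2 transcript held nearly all Pkm reads that were assigned to either form. Summed over libraries, Pkm-201 had 1269.2 estimated reads and Pkm-202 had 76.7, a share of 94.3% for the M2 form. With reads pooled per group, the share was 94.5% in Apoe-/- microbead libraries, 97.1% in Apoe-/- sham, 93.6% in wild-type microbead and 94.3% in wild-type sham libraries. All 38.7 Pkm-202 reads of the wild-type microbead group came from library 2. All 3.8 of the Apoe-/- sham group came from library 1. Single libraries ranged from 81 to 100%, and every library had more reads on the M2 form than on the M1 form. Salmon assigned these reads to whole transcripts, so the split rests on its model and not on reads across the exons alone.

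The core ACGTG of the hypoxia response element, the sequence bound by hypoxia-inducible factor, was searched on both strands of the RefSeq windows around transcription starts (250 bases before to 50 after, GRCm38.p6). It was present for 20 of the 31 members with a window (64.5%), against 5886 of 27025 genes (21.8%). Slc2a3 had no window in that table. Some members are textbook targets of the factor and so were listed in part for this property. The letters CACGTG hold the core on both strands and count as 2 matches. Hif1a and Pgam1, among the members with the largest wild-type differences described below, and Ldha, a classical target with 5 matches, are shown with the matched letters in capitals. Their windows are chr12:73907617-73907916, chr19:41911621-41911920 and chr7:46845554-46845853, all on the plus strand.
Hif1a: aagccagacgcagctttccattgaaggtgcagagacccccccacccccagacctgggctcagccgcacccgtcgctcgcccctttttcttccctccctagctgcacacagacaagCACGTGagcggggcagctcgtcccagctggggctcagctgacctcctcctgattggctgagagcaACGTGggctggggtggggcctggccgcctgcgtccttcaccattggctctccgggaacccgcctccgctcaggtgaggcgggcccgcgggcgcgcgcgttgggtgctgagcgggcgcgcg
Pgam1: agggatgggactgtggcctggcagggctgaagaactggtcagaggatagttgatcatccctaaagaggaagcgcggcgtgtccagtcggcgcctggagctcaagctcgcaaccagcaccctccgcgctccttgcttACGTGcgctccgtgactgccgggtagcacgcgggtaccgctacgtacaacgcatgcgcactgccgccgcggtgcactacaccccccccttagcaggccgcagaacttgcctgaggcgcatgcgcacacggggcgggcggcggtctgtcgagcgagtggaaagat
Ldha: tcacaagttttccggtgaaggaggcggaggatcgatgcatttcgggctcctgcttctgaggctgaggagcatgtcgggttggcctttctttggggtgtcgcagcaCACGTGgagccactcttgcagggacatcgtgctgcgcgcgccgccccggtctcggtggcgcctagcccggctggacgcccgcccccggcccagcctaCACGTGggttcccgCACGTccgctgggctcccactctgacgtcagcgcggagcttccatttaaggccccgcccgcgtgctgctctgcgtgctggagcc

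The Hif1a window held 3 matches and the Pgam1 window held 1. The windows of Tpi1, the member with the largest wild-type fold change, and of Pfkl held none. A second window of Ldha, chr7:46846832-46847131, also held none. A match describes letters and no binding was measured here.

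Per unit of transcript length, Gapdh was the most abundant member, with a mean of 72.9 TPM over the 15 libraries. Aldoa followed at 31.5 TPM, Ldhb at 25 TPM, Ldha at 23.7 TPM, Pkm at 20.3 TPM and Eno1 at 19.7 TPM. The order of the means below Gapdh differed between groups. Ldhb exceeded Aldoa in Apoe-/- microbead libraries (21 and 20.6 TPM) and in Apoe-/- sham libraries (17.6 and 16.3 TPM), though not in every library. Pkm at 53 TPM and Ldha at 50.5 TPM exceeded Ldhb at 43.4 TPM in wild-type microbead libraries. That last order came from library 2 alone, at 98.2, 81.7 and 45.7 TPM for Pkm, Ldha and Ldhb. Library 1 had 23.1, 24.7 and 33 TPM, and library 3 had 37.8, 45 and 51.6 TPM. Gapdh is the glyceraldehyde phosphate dehydrogenase often taken as a housekeeping gene. At the other end, Vegfa averaged 0.134 TPM and the oxygen-sensing hydroxylases Egln1 and Egln3 averaged 0.421 and 0.467 TPM. The glucose transporter genes Slc2a1 and Slc2a3 averaged 1.02 and 0.553 TPM, below each of the 21 tested members.

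Where a step has several isoenzymes, the libraries mostly used the same one. Hk2 was the hexokinase with the highest TPM in 14 of 15 libraries, and its share of the 3 hexokinases was 59.9 ± 15.4% in Apoe-/- microbead, 61.7 ± 6.98% in Apoe-/- sham, 63.4 ± 8.99% in wild-type microbead and 64.5 ± 10.6% in wild-type sham libraries (mean ± SD, n = 4, 4, 3 and 4). Hexokinases trap glucose in the cell as its phosphate. Hk3, a form known from myeloid cells, held most of the rest. Aldoa was the higher aldolase and Eno1 the higher enolase in all 15 libraries. Aldoc and the neuronal enolase gene Eno2 had 36 and 13 reads in all. Eno2 was at 0 reads in 11 libraries.

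The subunit genes of lactate dehydrogenase were at similar levels, and the order within the pair varied between libraries. Ldha, whose subunit favours making lactate, held 46.9 ± 6.25% of the pair in Apoe-/- microbead and 39.5 ± 5.78% in Apoe-/- sham libraries. It held 51.2 ± 11.4% in wild-type microbead and 46.9 ± 4.65% in wild-type sham libraries. Wild-type microbead libraries 1 to 3 were at 42.8, 64.1 and 46.6%, so the higher wild-type microbead mean rests on library 2. Ldhb, whose subunit favours lactate use, was the higher of the pair in 11 libraries and Ldha in 4. Pfkfb3 and Pfkfb4 were likewise split, with Pfkfb3 higher in 11 libraries and Pfkfb4 in 4. Of the Pfkfb4 reads, 65.2% were assigned to Pfkfb4-205, which is annotated as a processed transcript and not as protein-coding. The Pfkfb4 share is therefore not one of coding transcripts alone. The ranges of the Ldha share overlapped within each genotype.

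Phosphofructokinase, which commits sugar to glycolysis, was mostly the liver form Pfkl. Its share of the 3 forms was 68.9 ± 8.3% in Apoe-/- microbead and 58.9 ± 14.9% in Apoe-/- sham libraries, and 89.2 ± 5.09% in wild-type microbead and 57 ± 20.7% in wild-type sham libraries. The wild-type groups did not overlap, at 85.2 to 95% after microbeads and 37.1 to 82.2% after sham injection, and the Apoe-/- groups did. The muscle and platelet forms Pfkm and Pfkp had only 49 and 70 reads in all, and both overlap genes on the opposite strand with more reads, Senp1 with 194 and Pitrm1 with 99. Transcripts with a retained intron took 59.1% of the Pfkp reads and 25% of the Pfkl reads. In wild-type sham library 2, Pfkp had 1.43 TPM from 2 reads and Pfkl had 1.09 TPM from 8 reads. The lower sham shares thus rest on few reads, and the shares were not tested.

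**Figure D1:**
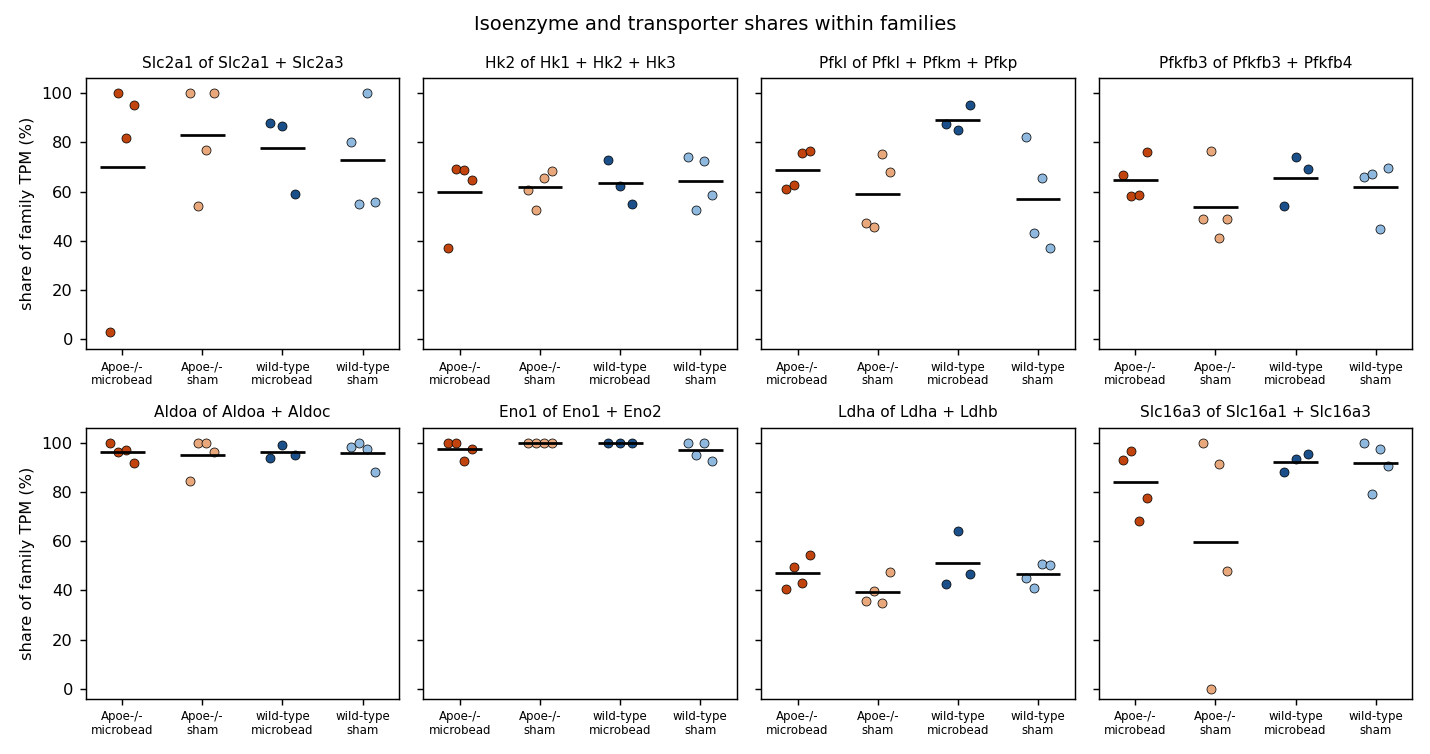
Share of family TPM (%) held by the named member in each library, by group, with bars at the group means. Hk2, Aldoa and Eno1 lead their families in nearly every library, and Ldha and Ldhb share theirs. The Pfkl share is 85.2 to 95% in wild-type microbead libraries against 37.1 to 82.2% in wild-type sham libraries. Pfkm and Pfkp had only 49 and 70 reads in all.

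In wild-type retinas the members were mostly higher after microbeads, but no member passed the test, and 1 library carried much of the difference. All 21 tested members had a positive log2 fold change of microbead against sham, with a median of 0.49 and a range of 0.017 to 1.63, where the median over all tested genes was -0.011. By edgeR's quasi-likelihood test with Benjamini-Hochberg adjustment over all tested genes, 0 of the 21 members passed an adjusted p of 0.05, against 13 of 6521 genes (0.199%). DESeq2 and limma on log2 TPM also called 0 members. At an unadjusted p under 0.05, 6 members were higher and 0 lower, where 4.23% of all tested genes were higher and 3.63% lower. The levels of 5 members did not overlap between the groups, all 5 higher after microbeads, where 6.32% of all tested genes were separate and higher and 4.22% separate and lower. Pgam1, 1 of the 5, overlapped once reads of its near copies were added. In bulk RNA, more transcript per cell and a larger part of the cells with that transcript cannot be told apart.

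Wild-type microbead library 2 stood apart. It was the highest of all 15 libraries for 14 of the 21 tested members, and the 32 members summed to 3479 CPM there, against 1934 and 1926 CPM in the other wild-type microbead libraries and 1356 to 1959 CPM in wild-type sham libraries. Without it, 16 of 21 members were positive, the median was 0.16, and 2 members, Hif1a and Pfkl, had an unadjusted p under 0.05, where 271 of 7001 genes tested in that fit were under 0.05 and 1.73% were under it and higher. It also had the highest summed level of 20 immediate early and dissociation genes among the wild-type libraries, 9736 CPM, against 1745 and 5347 CPM in the other wild-type microbead libraries and 418 to 4652 CPM in wild-type sham libraries. All 20 of those genes had reads. Among Apoe-/- libraries that sum was 315 to 10423 CPM after microbeads and 407 to 2758 CPM after sham injection. In Apoe-/- microbead libraries 1 to 4 it was 2987, 445, 315 and 10423 CPM. The members summed to 1363, 2010, 1683 and 1803 CPM in the same 4 libraries. The part of these genes in the members' levels was not tested.

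**Figure D2:**
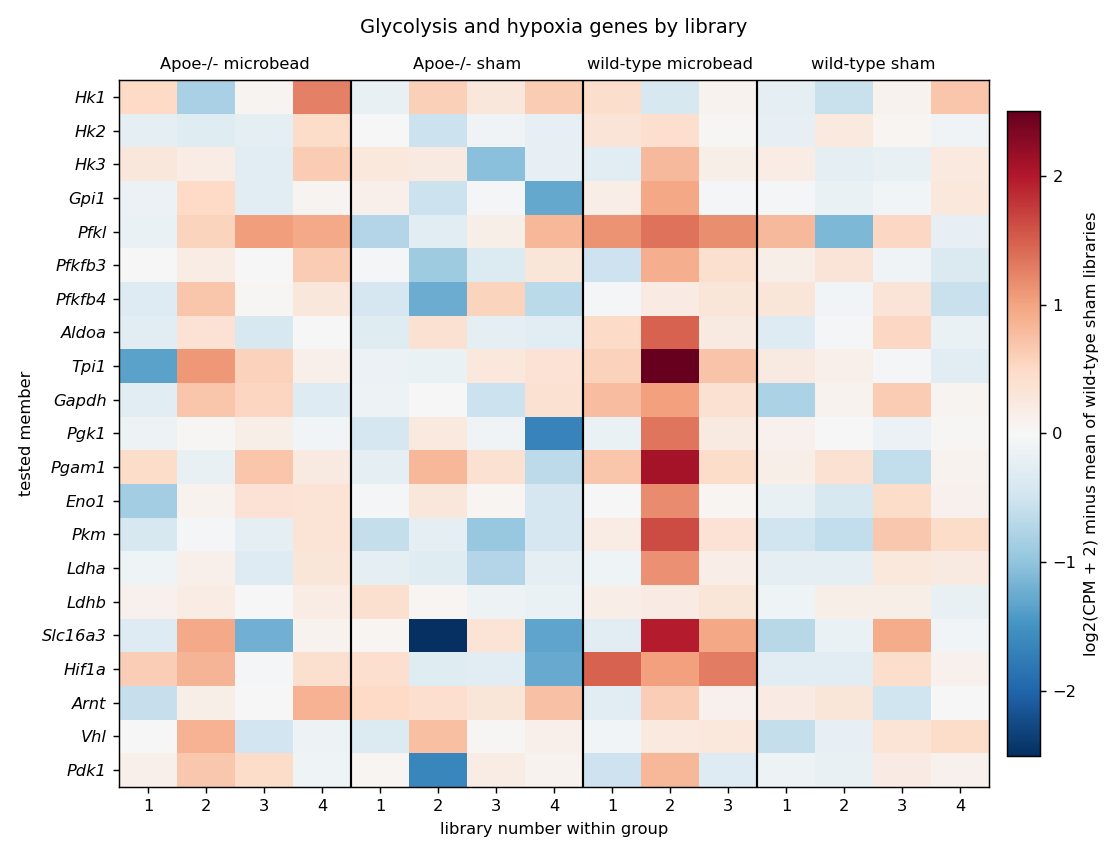
Difference of log2(CPM + 2) from the mean of the wild-type sham libraries for the 21 tested members (down the page) in each of the 15 libraries (across), red for higher and blue for lower. Wild-type microbead library 2 is the reddest column, and Hif1a and Pfkl are among the members that are red in all 3 wild-type microbead libraries.

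Hif1a, the oxygen-regulated subunit of hypoxia-inducible factor (ENSMUSG00000021109, chr12:73901375-73947530 on mm10, as are the other gene positions, plus strand), had the smallest p of the members in wild type. It had 43.5, 51.9, 27.2 and 37.3 CPM in Apoe-/- microbead libraries, against 38.1, 22.2, 22.6 and 10.4 CPM in Apoe-/- sham libraries. In wild type it had 81.1, 59 and 70.7 CPM in microbead libraries, against 22.8, 22.7, 38.4 and 30.1 CPM in sham libraries. The wild-type groups did not overlap, the Apoe-/- groups did, and library 2 was the lowest of the wild-type microbead libraries here. The log2 fold change was 0.74 (SE 0.35, adjusted p = 0.7) in Apoe-/- and 1.28 (SE 0.33, adjusted p = 0.149) in wild type. Over the alternatives the wild-type adjusted p ran from 0.0603 to 0.526, and leaving out single libraries gave fold changes of 1.16 to 1.47. Without library 2 the wild-type value was 1.39 (SE 0.37, adjusted p = 0.494).

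Arnt, the partner of Hif1a, had 12.4, 21.9, 19.4 and 37.3 CPM in Apoe-/- microbead libraries, against 28.5, 26.6, 24.4 and 33.9 CPM in Apoe-/- sham libraries. Wild-type microbead libraries had 15.9, 31 and 21.3 CPM, against 22.8, 24.5, 13.2 and 19.4 CPM in wild-type sham libraries. The groups overlapped in both genotypes, with log2 fold changes of -0.28 (SE 0.37, adjusted p = 0.883) in Apoe-/- and 0.22 (SE 0.37, adjusted p = 0.925) in wild type, which was -0.083 without library 2. Vhl, which marks the alpha subunit for degradation, had log2 fold changes of -0.028 and 0.11 in Apoe-/- and wild type, and its levels overlapped in both.

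The prolyl hydroxylases that sense oxygen were too low to test. Egln1 had 37 reads in all and averaged 6.26 ± 2.31 CPM in Apoe-/- microbead, 4.97 ± 3.76 CPM in Apoe-/- sham, 2.85 ± 0.17 CPM in wild-type microbead and 3.71 ± 1.99 CPM in wild-type sham libraries (SD). It had 4, 3, 2 and 3 reads in Apoe-/- microbead libraries, against 1, 1, 6 and 1 reads in Apoe-/- sham libraries. Wild-type microbead libraries held 2, 3 and 2 reads, against 2, 1, 3 and 3 reads in wild-type sham libraries. Egln3, itself a target of the factor, had 33 reads, 13 of them in wild-type microbead library 2.

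Targets of the factor outside glycolysis gave few reads, apart from Pdk1 with 302 reads in all. Bnip3, a mitophagy receptor, had 2, 6, 1 and 1 reads in Apoe-/- microbead libraries, against 7, 3, 8 and 5 reads in Apoe-/- sham libraries. Wild-type microbead libraries had 4, 36 and 12 reads, against 11, 1, 1 and 4 reads in wild-type sham libraries. Library 2 thus held 36 of its 102 reads, and the groups overlapped in CPM in both genotypes. Vegfa, the vascular growth factor gene, had 3 reads in wild-type microbead library 2, 1 read in library 3 and 0 reads in the other 13 libraries. These Vegfa counts lie at or under the limit of 3 reads, so no fold change is given. Pdk1, a kinase that inhibits pyruvate dehydrogenase, was tested. It had log2 fold changes of 0.42 (SE 0.38) in Apoe-/- and 0.15 (SE 0.37) in wild type, and overlapping levels in both. Its wild-type value was -0.45 (SE 0.40) without library 2.

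Glucose entry gave no testable gene. Slc2a1, the ubiquitous glucose transporter, had 1, 5, 3 and 6 reads in Apoe-/- microbead libraries, against 3, 2, 3 and 3 reads in Apoe-/- sham libraries. Wild type gave 6, 11 and 1 reads in microbead libraries, against 8, 3, 15 and 4 reads in sham libraries. These counts overlapped in both genotypes. Of the Slc2a1 reads, 60.6% were assigned to a transcript annotated for nonsense-mediated decay. Slc2a3, the neuronal glucose transporter, had 4, 0, 2 and 1 reads in Apoe-/- microbead libraries, against 0, 1, 2 and 0 reads in Apoe-/- sham libraries. Wild-type microbead libraries had 2, 4 and 2 reads of it, against 5, 3, 0 and 6 reads in wild-type sham libraries. Of its reads, 69.3% were assigned to a transcript with a retained intron.

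Hk2 had 72.5, 68.3, 71.9 and 117 CPM in Apoe-/- microbead libraries, against 85.6, 57.7, 80 and 73.1 CPM in Apoe-/- sham libraries. Values in wild type were 106, 114 and 86.7 CPM in microbead libraries, against 72.9, 101, 87.5 and 79.6 CPM in sham libraries. Both pairs of groups overlapped. On the log2 scale the fold change was 0.15 (SE 0.25, adjusted p = 0.917) in Apoe-/- and 0.26 (SE 0.25, adjusted p = 0.843) in wild type. Without Apoe-/- microbead library 4 the Apoe-/- value was -0.088. Hk1 and Hk3 had log2 fold changes of 0.18 and 0.42 in Apoe-/- and of 0.017 and 0.32 in wild type, with overlapping levels. Without wild-type microbead library 2 the wild-type values were 0.25 for Hk1 and -0.049 for Hk3.

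Gpi1, the isomerase that follows hexokinase, had 76.7, 120, 70 and 88.7 CPM in Apoe-/- microbead libraries, against 92.8, 57.7, 81.8 and 33.9 CPM in Apoe-/- sham libraries. Wild-type microbead libraries had 95.6, 167 and 82.7 CPM, against 83.5, 75.1, 80.3 and 103 CPM in wild-type sham libraries. Levels overlapped in both genotypes, with log2 fold changes of 0.39 (SE 0.32) in Apoe-/- and 0.44 (SE 0.32) in wild type, and 0.058 in wild type without library 2.

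Pfkl (ENSMUSG00000020277, chr10:77986947-78010083, minus strand) was, beside Hif1a, the member that kept an unadjusted p under 0.05 in wild type without library 2, and its wild-type groups did not overlap. It had 29, 49.2, 70 and 65.3 CPM in Apoe-/- microbead libraries, against 19, 26.6, 36.5 and 60 CPM in Apoe-/- sham libraries. In wild type it had 73.9, 87 and 76 CPM in microbead libraries, against 59.2, 14, 48 and 28 CPM in sham libraries. The Apoe-/- groups overlapped. The log2 fold change was 0.58 (SE 0.41, adjusted p = 0.763) in Apoe-/- and 1.05 (SE 0.39, adjusted p = 0.511) in wild type, and 0.97 (SE 0.45) in wild type without library 2.

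Pfkfb3 and Pfkfb4 make the sugar phosphate that activates phosphofructokinase. Pfkfb3 had 84.9, 95.6, 83.6 and 132 CPM in Apoe-/- microbead libraries, against 80.9, 44.4, 66.1 and 104 CPM in Apoe-/- sham libraries. Wild-type microbead libraries held 57.9, 160 and 112 CPM, against 92.6, 105, 79.1 and 64.5 CPM in wild-type sham libraries. The 3 wild-type microbead libraries thus spanned the whole sham range. Its log2 fold change was 0.41 (SE 0.32, adjusted p = 0.776) in Apoe-/- and 0.37 (SE 0.33, adjusted p = 0.824) in wild type, and the wild-type value was -0.0086 without library 2. Pfkfb4 had values of 0.44 and 0.11 in Apoe-/- and wild type.

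Aldoa, which cuts the activated sugar into triose phosphates, had 110, 169, 99.1 and 132 CPM in Apoe-/- microbead libraries, against 107, 173, 113 and 110 CPM in Apoe-/- sham libraries. Values in wild type were 185, 371 and 155 CPM in microbead libraries, against 105, 129, 189 and 118 CPM in sham libraries. Both pairs overlapped, and library 2 was well above any other library. On the log2 scale the fold change was 0.034 (SE 0.31) in Apoe-/- and 0.81 (SE 0.32, adjusted p = 0.527) in wild type, and 0.32 in wild type without library 2. With near copies added, the means were 128 CPM in Apoe-/- microbead and 131 CPM in Apoe-/- sham libraries, the opposite order to 128 and 126 CPM without them.

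Tpi1, which interconverts the triose phosphates (ENSMUSG00000023456, chr6:124810586-124814296, minus strand), had the largest wild-type fold change of the members. It had 14.5, 87.4, 60.3 and 43.6 CPM in Apoe-/- microbead libraries, against 35.7, 35.5, 48.7 and 52.2 CPM in Apoe-/- sham libraries. In wild type it had 60.8, 246 and 66.7 CPM in microbead libraries, against 47.1, 43.7, 38.4 and 32.3 CPM in sham libraries. Each wild-type microbead library exceeded each sham library, and library 2 was far above all. The log2 fold change was 0.21 (SE 0.48, adjusted p = 0.943) in Apoe-/- and 1.63 (SE 0.46, adjusted p = 0.254) in wild type. Without library 2 the wild-type value was 0.65 (SE 0.42). Tpi1 was the only member that any alternative called: with no filter on low counts its wild-type value was 1.69 with an adjusted p of 0.00197, the lowest over the alternatives, which ranged up to 1. Its neighbour Spsb2, on the opposite strand, overlaps it and had 83 reads in all, against 610 for Tpi1.

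Gapdh had 238, 462, 416 and 229 CPM in Apoe-/- microbead libraries, against 262, 289, 195 and 370 CPM in Apoe-/- sham libraries. Wild-type microbead libraries held 491, 579 and 371 CPM, against 163, 302, 445 and 301 CPM in wild-type sham libraries. Both pairs overlapped, and the log2 fold change was 0.27 (SE 0.32) in Apoe-/- and 0.66 (SE 0.34, adjusted p = 0.667) in wild type. These values are uncertain, because 127 near-identical copies elsewhere in the genome also had reads, 3405 in all against 3061 for Gapdh itself. With the copies added, the group means were 706 CPM in Apoe-/- microbead and 807 CPM in Apoe-/- sham libraries, the opposite order, and 858 CPM in wild-type microbead and 700 CPM in wild-type sham libraries. Iffo1, an opposite-strand neighbour that overlaps Gapdh, had 956 reads.

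Pgam1, the mutase after Pgk1 (ENSMUSG00000011752, chr19:41911923-41918660, plus strand), had 47.6, 30, 56.4 and 40.4 CPM in Apoe-/- microbead libraries, against 28.5, 62.2, 45.2 and 20.9 CPM in Apoe-/- sham libraries. Values in wild type were 56.5, 152 and 48 CPM in microbead libraries, against 38, 45.4, 21.6 and 36.6 CPM in sham libraries. The wild-type groups did not overlap, by a margin of 48 against 45.4 CPM, and the Apoe-/- groups did. With 24 reads of near copies added, the group means were 44.6 CPM in Apoe-/- microbead and 46.5 CPM in Apoe-/- sham libraries, against 43.6 and 39.2 CPM without them, and 85.5 CPM in wild-type microbead and 40.5 CPM in wild-type sham libraries, against 85.5 and 35.4 CPM. The wild-type groups then overlapped, at 48 to 152 CPM in microbead and 30 to 50.1 CPM in sham libraries. Adding the copies was chosen after seeing the data. On the log2 scale the fold change was 0.21 (SE 0.41, adjusted p = 0.933) in Apoe-/- and 1.30 (SE 0.40, adjusted p = 0.334) in wild type, and 0.57 (SE 0.39) in wild type without library 2. Pgk1, which makes the first ATP of the pathway, and Eno1 had wild-type log2 fold changes of 0.67 and 0.49, and 0.043 and -0.016 without library 2. In Apoe-/- they had 0.38 and 0.073, with overlapping levels throughout.

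Pkm, the last step to pyruvate, had 97.4, 126, 109 and 166 CPM in Apoe-/- microbead libraries, against 85.6, 111, 66.1 and 96.5 CPM in Apoe-/- sham libraries. Wild-type microbead libraries had 148, 409 and 167 CPM, against 91.1, 83.9, 207 and 179 CPM in wild-type sham libraries. Both pairs overlapped, and library 2 was well above the others within its group. The log2 fold change was 0.49 (SE 0.37, adjusted p = 0.766) in Apoe-/- and 0.78 (SE 0.37, adjusted p = 0.626) in wild type, and 0.16 in wild type without library 2.

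Ldha had 97.4, 115, 83.6 and 131 CPM in Apoe-/- microbead libraries, against 90.4, 84.4, 62.6 and 88.7 CPM in Apoe-/- sham libraries. In wild type it had 97, 234 and 119 CPM in microbead libraries, against 88.1, 89.1, 127 and 123 CPM in sham libraries. The groups overlapped in both genotypes. Its log2 fold change was 0.40 (SE 0.29, adjusted p = 0.766) in Apoe-/- and 0.50 (SE 0.30, adjusted p = 0.716) in wild type, and 0.012 in wild type without library 2. Ldhb varied little, at 90.3 to 136 CPM over all libraries. Its wild-type groups did not overlap, at 116 to 127 CPM after microbeads and 90.3 to 115 CPM after sham injection, but its log2 fold change was only 0.21 (SE 0.23, adjusted p = 0.859).

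Slc16a3, the transporter that exports lactate from glycolytic cells, had 12.4, 32.8, 5.83 and 17.1 CPM in Apoe-/- microbead libraries, against 16.7, 0, 20.9 and 5.22 CPM in Apoe-/- sham libraries. Wild-type microbead libraries held 13, 68 and 33.3 CPM, against 9.11, 14, 32.4 and 15.1 CPM in wild-type sham libraries. Both pairs overlapped, and the 0 in Apoe-/- sham library 2 comes from the library with the widest limit, 13.32 CPM. On the log2 scale the fold change was 0.41 (SE 0.69, adjusted p = 0.917) in Apoe-/- and 1.09 (SE 0.58, adjusted p = 0.688) in wild type, and -0.035 in Apoe-/- without microbead library 2. In wild type it was 0.36 without microbead library 2 and 1.60 without sham library 3. Slc16a1, the other lactate transporter, had 39 reads in all.

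**Figure D3:**
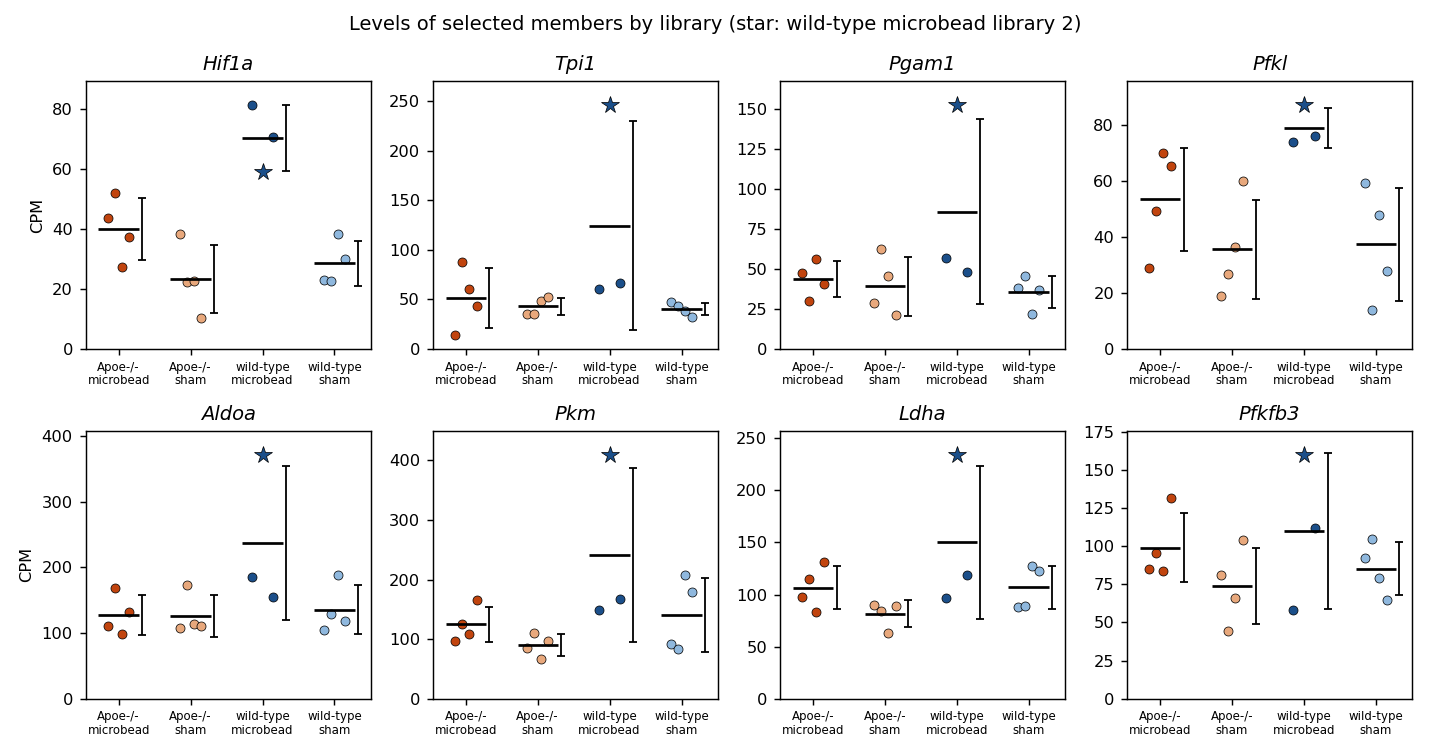
CPM of 8 members in each library by group, with a bar at the mean and whiskers of 1 SD, and a star for wild-type microbead library 2. The star is the highest point for every member but Hif1a, for which the 3 wild-type microbead libraries lie at 59 to 81.1 CPM, above all 12 other libraries.

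In Apoe-/- retinas most members were also positive after microbeads, and no member passed the test. Of the 21 tested members 19 were positive, with a median log2 fold change of 0.38 and a range of -0.28 to 0.74, where the median over all tested genes was 0.0079. This median lies below the wild-type median of 0.49 with all libraries and above that of 0.16 without wild-type microbead library 2. The test called 0 members and 0 of 6521 genes (0%), DESeq2 called 0 genes, and limma on log2 TPM called 1 gene and 0 members. At an unadjusted p under 0.05, 1 member, Hif1a, was higher and 0 were lower, where 3.31% of all tested genes were higher and 3.63% lower. No member had levels that did not overlap between Apoe-/- microbead and Apoe-/- sham libraries, where 1.55% of all tested genes were separate and higher after microbeads and 0.951% separate and lower. Leaving out single libraries moved the median between 0.24 and 0.42. Rod photoreceptor transcripts, from 21 genes that all had reads, summed to 287 to 3141 CPM in Apoe-/- microbead and 270 to 2038 CPM in Apoe-/- sham libraries, and to 200 to 849 CPM in wild-type microbead and 796 to 3323 CPM in wild-type sham libraries. Their part in the members' levels was not tested beyond a fit with the rod level as a covariate. That fit also called 0 members, a count that cannot show this part. The members' median in it was 0.34 in Apoe-/- and 0.65 in wild type, against 0.38 and 0.49 without the covariate.

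**Figure D4:**
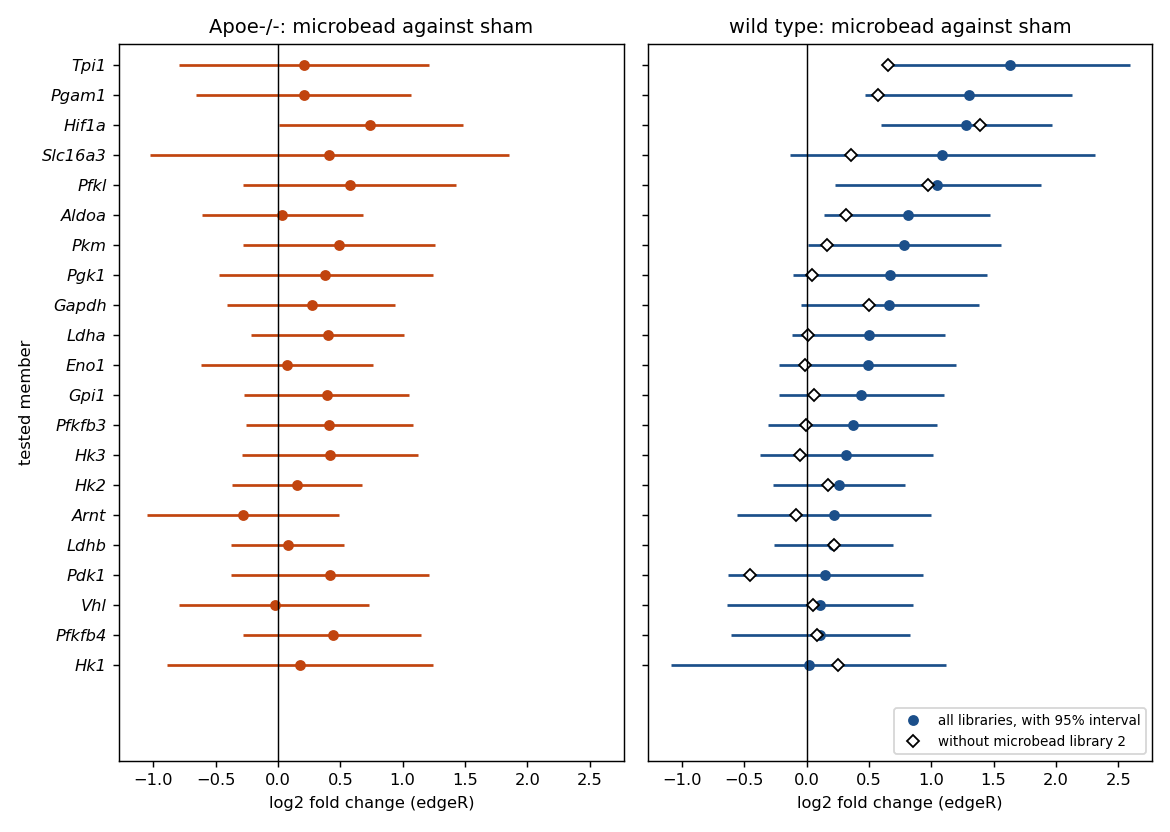
Log2 fold change of microbead against sham with its 95% interval for the 21 tested members, in Apoe-/- (left) and wild-type retinas (right), and open diamonds for wild type without microbead library 2. Members are in the order of the wild-type value, from Tpi1 at 1.63 to Hk1 at 0.017, and the diamond lies left of the point for every member but Hif1a, Ldhb and Hk1.

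The difference between the genotypes' responses was tested as an interaction, and no member passed. The Apoe-/- response minus the wild-type response was negative for 16 of 21 members, with a median of -0.29 where the median over all tested genes was 0.0045. Both responses use their own sham and microbead libraries. The test called 0 members and 0 of 6521 genes (0%), as did DESeq2, and limma on log2 TPM called 1 gene and 0 members. At an unadjusted p under 0.05, 1 member was lower and 0 were higher, where 1.46% of all tested genes were lower and 1.93% higher. That member was Tpi1, at -1.42 (SE 0.67, adjusted p = 1). Pgam1 followed at -1.09 (SE 0.58), Aldoa at -0.77 (SE 0.45) and Hif1a at -0.54 (SE 0.49), all with an adjusted p of 1. The interval for Hif1a ran from -1.55 to 0.48, which includes 0. Without wild-type microbead library 2, Tpi1 was at -0.43, Pgam1 at -0.36 and Aldoa at -0.28, and the members' median was -0.016.

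Between sham-injected retinas of the genotypes no member passed the test. Apoe-/- against wild type, 15 of 21 members were negative, with a median log2 fold change of -0.13 and a range of -0.66 to 0.51. Over all tested genes the median was -0.013, with 3329 of 6521 negative. The test called 0 members and 1 of 6521 genes (0.0153%), and at an unadjusted p under 0.05 there were 0 members in either direction, where 2.99% of all tested genes were lower and 5.69% higher. DESeq2 and limma called 0 members. Pkm had the smallest p, at -0.66 (SE 0.37, adjusted p = 0.621), with 66.1 to 111 CPM in Apoe-/- sham and 83.9 to 207 CPM in wild-type sham libraries. Arnt was at 0.51 (SE 0.37, adjusted p = 0.71), Ldha at -0.40 (SE 0.29, adjusted p = 0.723) and Gpi1 at -0.34 (SE 0.31, adjusted p = 0.791). The groups overlapped for every tested member, where 1.2% of all tested genes were separate and higher in Apoe-/- and 2.39% separate and lower.

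Between microbead-injected retinas more members were lower in Apoe-/-, again with none past the test. Of 21 members 17 were negative, with a median log2 fold change of -0.47 and a range of -1.31 to 0.48. Over all tested genes the median was 0.014, with 3198 of 6521 negative. The test called 0 members and 3 of 6521 genes (0.046%), and DESeq2 and limma also called 0 members. At an unadjusted p under 0.05, 5 members were lower and 0 higher, where 2.94% of all tested genes were lower and 4.25% higher. Tpi1 was at -1.31 (SE 0.46, adjusted p = 0.568), Aldoa at -0.90 (SE 0.32, adjusted p = 0.568), Pkm at -0.95 (SE 0.37, adjusted p = 0.626) and Hif1a at -0.82 (SE 0.33, adjusted p = 0.626). With no filter on low counts Tpi1 was at -1.42 with an adjusted p of 0.0465, the lowest over the alternatives, which ranged up to 1. Hif1a and Pfkl did not overlap, with every Apoe-/- microbead library below every wild-type microbead library, where 3.7% of all tested genes were separate and lower and 3.14% separate and higher. Without wild-type microbead library 2 the median was -0.054, with 8 of 21 members positive, and Tpi1, Aldoa and Pkm were at -0.34, -0.43 and -0.34. Leaving out single libraries kept Hif1a between -0.96 and -0.68. A letter in the names of the deposited tables follows the genotype, and since its meaning is not stated, anything it marks cannot be told apart from genotype.

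No other listed gene of these pathways passed the test. Of 35 further genes of sugar transport and glycolysis 12 were tested, of 36 further hypoxia genes 12, and of 8 pentose phosphate genes 7, and the test called 0 of them in each of the 5 contrasts. In wild type, unadjusted p-values were under 0.05 for 3, 2 and 0 of these tested genes, and in Apoe-/- for 2, 0 and 0. Over all tested genes, 4.23% were higher and 3.63% lower at that level in wild type, and 3.31% higher and 3.63% lower in Apoe-/-. The medians of the wild-type log2 fold changes were -0.13, 0.12 and 0.20, with 5 of 12, 8 of 12 and 5 of 7 positive. In Apoe-/- they were 0.014, 0.059 and 0.11. Over all listed genes found, wild-type microbead library 2 had sums of 584, 935 and 417 CPM for the 3 lists. Library 1 of that group had 446, 519 and 274 CPM, and library 3 had 596, 662 and 369 CPM. Wild-type sham libraries had 546 to 675, 531 to 611 and 224 to 329 CPM. Fold changes without library 2 are not given for these lists.

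Slc2a6, a sugar transporter of lysosomes in myeloid cells, had the smallest p among these genes in both genotypes. It had 14.5 to 76.5 CPM in Apoe-/- microbead libraries and 4.76 to 13.9 CPM in Apoe-/- sham libraries, and 23.2 to 78.7 CPM in wild-type microbead and 5.24 to 19.7 CPM in wild-type sham libraries. The groups did not overlap in either genotype, with log2 fold changes of 1.80 (SE 0.65, adjusted p = 0.7) in Apoe-/- and 2.27 (SE 0.57, adjusted p = 0.135) in wild type. Slc2a5, a fructose transporter of resting microglia, was in the opposite direction. It had 49.2 to 112 CPM in Apoe-/- microbead and 79.9 to 184 CPM in Apoe-/- sham libraries, and 58 to 120 CPM in wild-type microbead and 144 to 192 CPM in wild-type sham libraries. Its log2 fold changes were -0.65 (SE 0.31, adjusted p = 0.7) in Apoe-/- and -0.99 (SE 0.33, adjusted p = 0.442) in wild type, where its groups did not overlap. Slc2a8, an intracellular sugar transporter, was at -0.76 (SE 0.35, adjusted p = 0.612) in wild type, at 15 to 22.7 CPM after microbeads and 28 to 36 CPM after sham injection. Minpp1, a phosphatase of inositol phosphates in the sugar list, was at 0.73 (SE 0.51) in Apoe-/-, with overlapping levels.

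Among the hypoxia genes, Plin2, which coats lipid droplets, was at 1.53 (SE 0.46, adjusted p = 0.329) in wild type, with 15.9 to 76 CPM after microbeads and 9.59 to 18.2 CPM after sham injection. Mif, a cytokine gene, was at 1.28 (SE 0.47, adjusted p = 0.511), with 21.3 to 82 CPM after microbeads and 10.6 to 27.6 CPM after sham injection. P4ha1, a collagen prolyl hydroxylase, was at 0.40 (SE 0.28) in Apoe-/- and 0.37 (SE 0.27) in wild type. The groups of these 3 genes overlapped. The spread in wild-type microbead libraries was wide, with means of 40 ± 31.8 CPM for Plin2 and 42.2 ± 34.5 CPM for Mif (SD). In Apoe-/- the histone demethylase gene Kdm3a was at -0.67 (SE 0.44) and Elob, a partner of Vhl, at 0.75 (SE 0.55).

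In the pentose phosphate pathway, which branches off glycolysis to make NADPH, Pgd was at 0.15 (SE 0.32) in Apoe-/- and 0.63 (SE 0.32, adjusted p = 0.667) in wild type. Taldo1 was at -0.19 (SE 0.33) in Apoe-/- and 0.36 (SE 0.34) in wild type. H6pd was at -0.53 (SE 0.46) in wild type, and Rpia at -1.18 (SE 0.65, adjusted p = 0.711) in Apoe-/-, where its sham libraries ranged from 5.22 to 88.8 CPM. The groups of these 4 genes overlapped.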

How the data were processed

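Bulk RNA of sorted microglia from 15 retinas was measured, grouped by the labels. The authors deposited 1 Salmon table per library with the estimated count of reads and the TPM per transcript, per the file headers, and a table of gene TPM for the series. The submitters' processing notes name Salmon 1.4.0, DESeq2 1.30.1, R 4.0.3 and build mm10. No source used here gives the annotation, strandedness or read filter.

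GENCODE M21 gave a gene to 116023 of 116945 transcripts, matched by identifier, and the others held 0.217 to 0.354% of reads and were left out. Summed per gene, TPM matched the deposited table within a relative tolerance of 0.001 for 99.72% of values. Estimated counts, as deposited, were summed per gene and rounded. 1 edgeR 4.0.16 quasi-likelihood model (R 4.3.3, TMM, filterByExpr, no block) of all 4 groups gave 5 contrasts, with two-sided p-values adjusted by Benjamini-Hochberg over 6521 genes and a threshold of 0.05. The common biological coefficient of variation was 34.4%. DESeq2 1.42.0 and limma 3.58.1 on log2(TPM + 1), for genes with at least 1 TPM in at least 3 libraries, were alternatives, beside others of scaling, filter and samples. The procedure was tested on simulated data with changes larger than any seen in the members and with no outlying library. That test therefore does not show how often changes of the members' size would be called.

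Values in every library are given for the 4 members of smallest p in each contrast and for fixed genes of each role, and for other lists the called genes and the 3 of smallest p in each microbead contrast. Members and lists were chosen with earlier results of these data known. The labels do not say that retinas came from separate mice, so p-values measure the spread between these samples, which may be technical. Reads carry no molecular identifiers, so limits from 0 reads cover counting error only. Libraries of a group differed by more than sampling noise, with chi-square over degrees of freedom from 2.21 upwards. Near copies were transcripts with at least 90% identity over at least 200 bases. Sequences are from RefSeq and GENCODE.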

Additional observations from a re-analysis of the deposited data

Results flagged for a closer look

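Among the members described library by library, 51 groups of 4 libraries were checked for a library far from the rest, and 2 were found. Chance alone gives about 1 in 20 such groups. Wild-type microbead libraries (n = 3) were not checked, so the check says nothing about library 2 of that group. Hk2 had 117 CPM in Apoe-/- microbead library 4, where the nearest library of the group had 72.5 CPM and the lowest 68.3 CPM, so the gap made up 0.913 of the group's range. That library also had the highest levels in its group of rod transcripts, 3141 CPM, and of immediate early and dissociation genes, 10423 CPM, and their part in the Hk2 value was not tested. Aldoa had 173 CPM in Apoe-/- sham library 2, where the nearest library had 113 CPM and the lowest 107 CPM, a gap of 0.909 of the range. That library had the smallest TMM-scaled size, 225227 reads, and the highest rod level of its group, 2038 CPM, and their part was not tested.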

How the results depend on the processing

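No member was called under any alternative except Tpi1 with no filter on low counts, which gave 1 member changed in wild type and 1 between microbead retinas. Numbers of genes called in wild type were 124 with no filter, 5 where 10 reads were required in 7 libraries, 1 with the rod covariate, 21 without satellite models, 33 with only the groups compared, 36 by DESeq2, and 43 and 25 by limma on log2(TPM + 1) with and without a filter. Between microbead retinas they were 73 with no filter, 1 with the stricter filter, 23 by DESeq2, and 25, 1 and 19 by limma on log2(TPM + 1), log2(TPM + 0.1) and without a filter. With no filter 37 genes were called in Apoe-/-, 45 for the difference and 41 between sham retinas, and the rod covariate gave 1 for the difference and 2 between sham retinas. Each limma fit called 1 gene in Apoe-/- and 3 between sham retinas, and both fits on log2(TPM + 1) called 1 for the difference. The causes were not tested.

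On TPM these medians of the members lay further from 0, and those of all genes are given in brackets. With log2(TPM + 1), log2(TPM + 0.1) and no filter they were 1.13 (0.45), 1.26 (0.67) and 0.99 (0.086) in wild type, -0.70 (-0.37), -0.72 (-0.49) and -0.66 (-0.17) for the difference, and -1.15 (-0.56), -1.31 (-0.86) and -0.99 (-0.11) between microbead retinas. Between sham retinas log2(TPM + 0.1) gave -0.48 (-0.35).

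Leaving out single libraries gave 0 genes called in wild type without microbead library 2 and up to 29 without microbead library 1, and 1 to 7 between microbead retinas, 7 without Apoe-/- microbead library 2. The members' median ran from 0.16 to 0.68 in wild type, -0.46 to -0.016 for the difference and -0.59 to -0.054 between microbead retinas, each nearest 0 without wild-type microbead library 2, and from -0.19 to -0.038 between sham retinas. Without microbead library 2 the sign in wild type changed for Pfkfb3 (-0.0086), Hk3 (-0.049), Eno1 (-0.016), Arnt (-0.083) and Pdk1 (-0.45). Sign also changed for Hk2 in Apoe-/- (-0.088 without microbead library 4, up to 0.22 in other such fits) and Slc16a3 in Apoe-/- (-0.035 without microbead library 2, up to 0.94), and Pfkfb3 reached 0.67.

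Libraries with the same number did not deviate together (correlations of -0.16 to 0.03), so the numbers were not taken as pairs. The fit with the replicate number as a block called 7 genes in wild type, 1 between microbead retinas and no member. A fit of only the groups compared does not apply to the difference. Depth limits the 11 members that were not tested, with 4 to 102 reads each in all.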
